A study of Mus musculus with 6 samples.

Results

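Strong open chromatin inside the first introns of mouse kidney genes was described from ATAC-seq, an assay in which the Tn5 transposase cuts DNA that is not wrapped tightly and so marks accessible regions. The members were selected on the pooled peak list: distinct intervals on the 19 autosomes whose highest summit lay in intron 1 of the canonical transcript of a protein-coding gene, in no exon, more than 3 kb from the transcription start of any protein-coding or lncRNA transcript, and with a fold enrichment of at least 10 over the local background. This gave 2307 members of 279569 distinct intervals in the list, and of 274808 on the autosomes. The libraries labelled here are 3 WT and 3 Acly cKO kidney libraries, all with the treatment label Control, and by the study's methods the nuclei came from kidney cortex. Acly cKO mice lacked Acly, the cytosolic enzyme that makes acetyl-CoA from citrate, in the tubule cells that express the Cdh16 (Ksp) Cre driver, on an Acly fl/fl background, and the WT mice were by those methods littermates that carry the floxed allele without Cre. Ages are not in the labels. A single call over a pool of unnamed libraries made the peak list. The study also used earlier WT datasets that are not analysed here as samples, and whether they entered the pool is not stated in the sources used here. It therefore holds no value for any 1 library and none for either genotype, and neither a replicate error nor a contrast of Acly cKO with WT could be had. By label, batches 1 and 2 held WT alone and batches 4 and 5 Acly cKO alone, and the genotypes cannot be told apart from these batches.

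An intron is transcribed and then cut out of the RNA, and its DNA can hold enhancers, stretches bound by transcription factors that raise transcription of a gene from a distance. The first intron is the one nearest to the promoter, and it is on average the longest of a gene. In kidney tubules, HNF1 and HNF4 are known as lineage factors of the epithelium, AP-1 (the Fos and Jun proteins) binds at many active enhancers, and CTCF holds the ends of chromatin loops. Intervals like these are candidates for such elements, and accessibility alone does not show that they act as enhancers or on which gene.

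The sequences below show what the strongest members look like at their summits. Each is the plus strand of GRCm39 from 60 bases before to 60 bases after the highest summit, for the 8 members with the highest fold enrichment, and capitals mark matches to any of the 18 motifs searched, as spelled out further on. All 8 host genes lie on the minus strand.
Cmss1 (chr16:57211833-57211953): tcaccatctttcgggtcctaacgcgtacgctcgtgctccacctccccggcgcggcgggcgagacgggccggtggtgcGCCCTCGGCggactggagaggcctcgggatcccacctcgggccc
Irs1 (chr1:82261089-82261209): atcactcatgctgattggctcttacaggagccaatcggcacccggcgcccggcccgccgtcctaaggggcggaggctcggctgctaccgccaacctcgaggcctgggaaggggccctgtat
Cmtm4 (chr8:105110844-105110964): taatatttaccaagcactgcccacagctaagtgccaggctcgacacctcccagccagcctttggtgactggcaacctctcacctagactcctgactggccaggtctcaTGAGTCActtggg
Ptprj (chr2:90305344-90305464): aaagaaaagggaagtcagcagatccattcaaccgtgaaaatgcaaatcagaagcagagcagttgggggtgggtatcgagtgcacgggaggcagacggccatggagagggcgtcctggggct
Celsr2 (chr3:108319204-108319324): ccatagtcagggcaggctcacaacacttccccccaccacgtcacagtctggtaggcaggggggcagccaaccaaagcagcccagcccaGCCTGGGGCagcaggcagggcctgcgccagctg
Mfsd4b5 (chr10:39858801-39858921): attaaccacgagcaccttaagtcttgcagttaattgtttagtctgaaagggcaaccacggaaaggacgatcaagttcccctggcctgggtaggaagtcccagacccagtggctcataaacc
Cdc42bpb (chr12:111319974-111320094): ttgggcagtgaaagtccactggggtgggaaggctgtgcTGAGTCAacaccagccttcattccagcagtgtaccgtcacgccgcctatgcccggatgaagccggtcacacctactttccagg
Zswim6 (chr13:107967826-107967946): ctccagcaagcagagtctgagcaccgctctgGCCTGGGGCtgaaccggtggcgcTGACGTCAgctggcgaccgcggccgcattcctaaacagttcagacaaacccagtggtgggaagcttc
The AP-1 letters stood in the Cmtm4 and Cdc42bpb summits, the CRE letters in the Zswim6 summit, and the TFAP2 letters in the Cmss1, Celsr2 and Zswim6 summits. The Irs1, Ptprj and Mfsd4b5 stretches held none of the 18 motifs.

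Motif-bearing members are shown in the same way, as 81 bases of the plus strand of GRCm39 centred on the motif, for the strongest member with each motif named or, for HNF4, the second strongest. They show the letters in their sequence context, and the match may be to the reverse complement.
Mfsd4b5, HNF1 (chr10:39858762-39858842): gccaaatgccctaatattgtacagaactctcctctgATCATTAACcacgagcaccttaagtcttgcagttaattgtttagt
Abcc4, HNF4 (chr14:118916059-118916139): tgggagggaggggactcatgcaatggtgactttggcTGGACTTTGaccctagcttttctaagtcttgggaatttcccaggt
P3h2, ERR (chr16:25901807-25901887): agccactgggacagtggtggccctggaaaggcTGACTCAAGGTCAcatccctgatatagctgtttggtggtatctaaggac
Acot11, CTCF (chr4:106635695-106635775): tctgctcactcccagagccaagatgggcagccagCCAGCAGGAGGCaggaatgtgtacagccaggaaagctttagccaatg
Ptpn3, NF1 (chr4:57279366-57279446): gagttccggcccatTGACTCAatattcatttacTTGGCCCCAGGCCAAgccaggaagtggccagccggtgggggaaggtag
In P3h2 the capitals cover an AP-1 match and an ERR match that overlap. In Ptpn3, the only member with the NF1 letters, an AP-1 match stands beside the NF1 match, and a TFAP2 match lies within the NF1 match. The strongest member with AP-1 was the Cmtm4 interval shown above.

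The 2307 members had a median fold enrichment of 14.7, with quartiles of 11.9 and 20.3 and a highest value of 422. These values chose the members and are given as a description. The deposited -log10 q, which follows from the same pileup and background, had a median of 176. A fold enrichment from 10 to 15 was listed for 1215 members (52.7%), at least 20 for 601 (26.1%) and at least 50 for 20 (0.867%). The 3 members just inside the threshold, in Mtus1, Sipa1l2 and Ubash3b, stood at 10.02, and the 3 first-intron intervals just outside it, in Phlpp1, Zdhhc17 and Dpf3, at 9.95. Of the 29506 first-intron intervals that met the limits on position, 7.82% reached the threshold, while 12.2% of all autosomal intervals, promoters included, did. Later introns were close to first introns in this share. Across ranges of distance from the host start it was 5.64% to 8.89% in first introns and 4.88% to 7.87% in later introns.

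The strongest member lay in intron 1 of Cmss1 on chromosome 16, at 422-fold, 6.43 times the next one. Its summit was 215360 bp from the Cmss1 start and 38600 bp from the nearest protein-coding start. The window around it, 100 bases to either side, also lay within the gene Filip1l and was 70.1% G or C. Of the 31-base words in that window, 64.3% also stood elsewhere in the assembly. At the other 11 of the 12 strongest members this share was 0% in 10 and 5.85% in Mfsd4b5. Over all members, 2196 (95.2%) had summit windows whose 31-base words each stood once in the assembly, and in 9 members, Cmss1 included, at least 50% of the words were repeated. Copies that the assembly lacks are not counted, and the part of these repeats in the Cmss1 value was not tested.

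Behind Cmss1, the next 11 members lay between 54.9- and 65.7-fold. Irs1, the docking protein that carries the insulin signal inward, held a 65.7-fold summit 8189 bp from its start. Cmtm4, a membrane protein of the MARVEL family, held one at 59.6-fold, and Ptprj, a receptor tyrosine phosphatase, one at 58.8-fold. Celsr2, an atypical cadherin of planar cell polarity, stood at 58.5-fold. Mfsd4b5, which encodes a protein of the major facilitator superfamily of transporters, stood at 58.1-fold. Cdc42bpb, a kinase that acts below the small GTPase Cdc42, stood at 57.9-fold and Zswim6 at 55.8-fold. Bcar1, a scaffold of focal adhesions, stood at 55.7-fold. Nedd4l, the ubiquitin ligase that takes the epithelial sodium channel off the cell surface, stood at 55.5-fold, 69702 bp from its start. Ncoa2, a coactivator of nuclear receptors, also stood at 55.5-fold, and Ctnnd1, the p120 catenin of cadherin junctions, at 54.9-fold.

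The strong intervals were wide and complex. Members had a median width of 2447 bp (quartiles 1548 and 3914) and a median of 6 summits, and 165 (7.15%) had a single summit. In the 2142 members with over 1 summit, the weakest summit had a median fold enrichment of 2.10. The Bcar1 interval was 23711 bp wide with 57 summits, and the Celsr2 interval 12215 bp wide with 36. As the limits were set on the highest summit, the rest of an interval could reach beyond them: 405 members (17.6%) touched an exon and 278 (12.1%) reached within 3 kb of a start. Within the same range of 10- to 15-fold, the median width was 1981 bp in members, 1708 bp in later introns, 1393 bp in intergenic sequence 3 to 50 kb from a start and 1916 bp at promoters, where a promoter interval has its highest summit within 1 kb of a start. Width was not in the rule, but it rose with the fold enrichment that chose the members. Its median was 4344 bp in members of 30- to 50-fold and 400 bp in first-intron intervals under 10-fold. Width and fold enrichment come from the same pileup, in 1 pooled call with no replicate error.

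Members lay a median of 20977 bp from the start of the canonical host transcript (quartiles 10416 and 42383 bp). Within 20 kb of it lay 1110 members (48.1%), and beyond 100 kb lay 165 (7.15%). The host was also the gene with the nearest canonical start for 2150 members (93.2%). When all annotated protein-coding starts were counted, 1331 members (57.7%) had a start closer than the canonical host start, either another start of the host or that of another gene. The Ptprj summit was such a case, at 105587 bp from the canonical start but 4110 bp from the nearest start.

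First introns held more strong intervals per base than later introns. Over 157.6 Mb of first-intron sequence that met the limits on exons and starts there were 14.6 members per Mb (exact Poisson 95% interval 14.0 to 15.3). Later introns of the same transcripts held 5284 intervals by the same limits, or 10.1 per Mb (9.80 to 10.3). Intergenic sequence at any distance over 3 kb from a start held 4.76 per Mb (4.63 to 4.90), with no weighting by distance. The ratio of first to later introns was 1.45 (1.38 to 1.53). These intervals and all others given here cover counting error only, and regions of a pooled call are not replicates. Distance and intron length were not separated, and the ratio differed by distance. From 3 to 50 kb from the host start it lay between 1.31 and 1.5, it was 1.02 at 50 to 100 kb and 0.810 beyond 100 kb, where first introns held 6.27 per Mb (5.35 to 7.31) and later introns 7.75 (7.4 to 8.11). With later introns weighted to the distances of first introns, the ratio was 1.30. Intervals of any strength were also denser in first introns near the start, at 240 against 191 per Mb from 3 to 5 kb. They stood at 226 against 166 from 10 to 20 kb and 159 against 154 from 50 to 100 kb. Beyond 100 kb there were 81.2 against 98.4 per Mb. The higher density was thus not particular to the strong intervals.

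**Figure D1:**
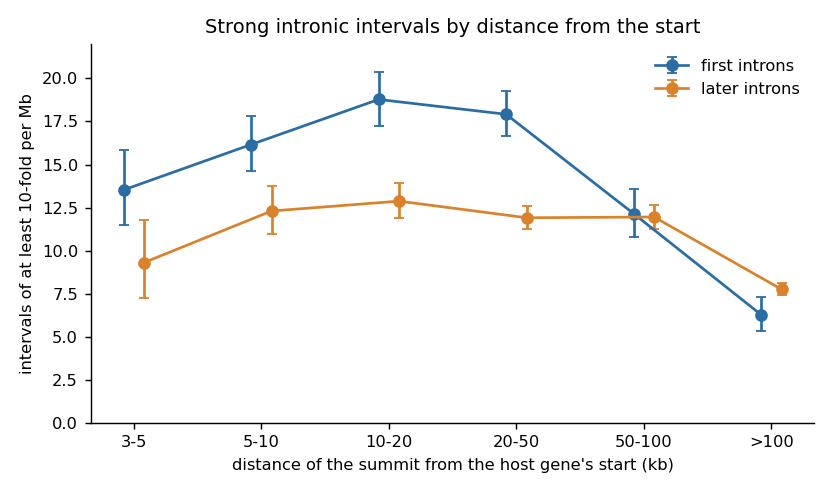
Intervals of at least 10-fold per Mb of eligible sequence (y axis) in first introns, which hold the members, and in later introns, by distance of the summit from the host start in kb (x axis), with exact Poisson 95% intervals. First introns were highest at 10 to 20 kb, with 18.8 per Mb against 12.9 in later introns, and the lines met at 50 to 100 kb.

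Along intron 1 itself the members were spread widely. In the 2663 eligible introns of 20 kb or longer, the density in 5 successive parts of equal length from the 5′ end, counted over eligible bases, was 12.8, 14.1, 14.0, 15.9 and 13.0 per Mb. The fourth was the highest, with a Poisson interval of 14.4 to 17.4 against 11.3 to 14.4 in the first. Members were found on every autosome, from 11.9 per Mb on chromosome 5 to 18.1 per Mb on chromosome 8.

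A gene could host a member if its canonical intron 1 had at least 200 bases that met the limits. Of 8344 such genes, 1397 (16.7%) hosted at least 1 member, 488 hosted at least 2, 52 at least 5 and 4 at least 10. Thus 1406 members (60.9%) shared their intron with another member, and neighbours in 1 intron stood a median of 9752 bp apart. The share of host genes rose with the eligible length, from 2.80% below 5 kb to 51.4% at 50 to 100 kb, and was 46.1% beyond 100 kb. Per Mb, the longest class was the lowest, with 7.04 members per Mb against 19.5 in introns of 20 to 50 kb.

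**Figure D2:**
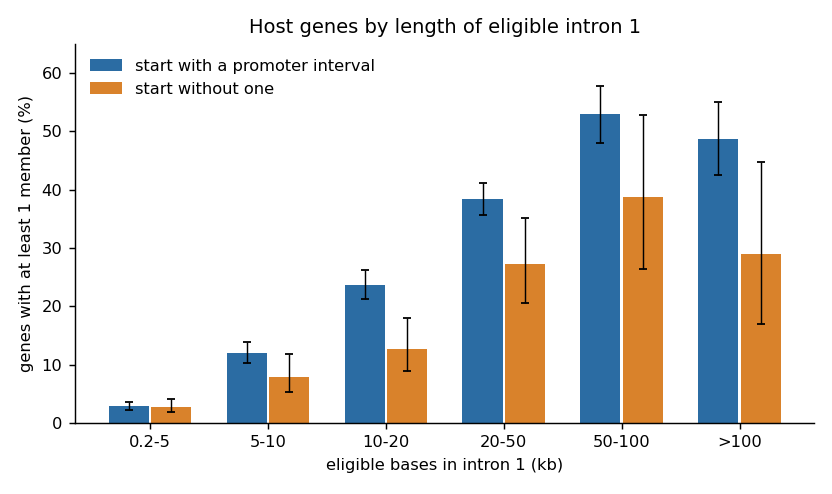
Percent of eligible genes with at least 1 member (y axis) by eligible bases in intron 1 (x axis, kb), split by whether the canonical start had a promoter interval, with Wilson 95% intervals. The share with a promoter interval was the higher at every length, although the intervals overlapped below 10 kb and above 50 kb.

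The gene with the most members was Pde4d, a phosphodiesterase that breaks down cAMP, with 13 in an intron of 623306 bp. Their fold enrichment ranged from 10.5 to 33.2, above or close to the 10.6-fold promoter interval, and they lay 112800 to 553545 bp from the start. Ank3, the ankyrin that ties membrane proteins to the spectrin skeleton, held 11 members between 10.7- and 22.5-fold. Myo5b, the myosin of apical recycling endosomes, also held 11, between 10.4- and 27.8-fold, at 95 per Mb. Ext1, a polymerase of heparan sulfate, held 10 between 10.9- and 34.0-fold. Cmss1 held 9, of which the 422-fold interval was 1 and the median was 14.7-fold. St6galnac3, Cmip and Ppargc1b tied with it at 9 members each and are named for that tie, and Ppargc1b had the most per base of these 8 genes, at 124 per Mb.

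Genes with a member more often had an open canonical start. A promoter interval was present for 1259 of 1397 hosts (90.1%, Wilson 95% interval 88.4 to 91.6) and for 5561 of 6947 eligible genes without a member (80.0%, 79.1 to 81). Its median fold enrichment was 35.7 in hosts and 31.2 in the other genes. This definition takes the highest summit of an interval, and wide members such as those of Irs1, Celsr2 and Bcar1 themselves reach within 3 kb of a start. With any summit within 1 kb of the start, 96.9% of hosts and 83.9% of the other genes had an open start. None of these shares was matched for eligible length, whose median was 24749 bp in hosts and 6798 bp over all eligible genes. Below 5 kb, 2.84% of genes with a promoter interval and 2.67% of those without hosted a member. At 20 to 50 kb these shares were 38.4% and 27.3%. The part of length in the difference was not tested.

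Most members were weaker than the start of their own gene, but not all. In the 1354 hosts with any summit at the start, the strongest member had a median of 0.556 of the fold enrichment at the start, and in 360 (26.6%, 24.3 to 29.0) it was the stronger. The genes named in this paragraph were chosen after their values were seen. Lipc, the hepatic lipase gene, had a member of 38.3-fold and a start of 2.3-fold, and Shank2, a scaffold of the postsynaptic density, 27.5-fold against 1.83-fold. Sim1, a transcription factor of hypothalamic neurons, had 45-fold against 4.06-fold. Casr, the calcium-sensing receptor that acts in the thick ascending limb, had 28.0-fold against 4.39-fold. In 43 hosts no summit was called within 1 kb of the canonical start, among them Fpr3, a formyl peptide receptor, with a member of 48.8-fold, and Slc13a4, a sulfate transporter, with 32.3-fold. Whether another start of these genes is the one in use was not tested.

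**Figure D3:**
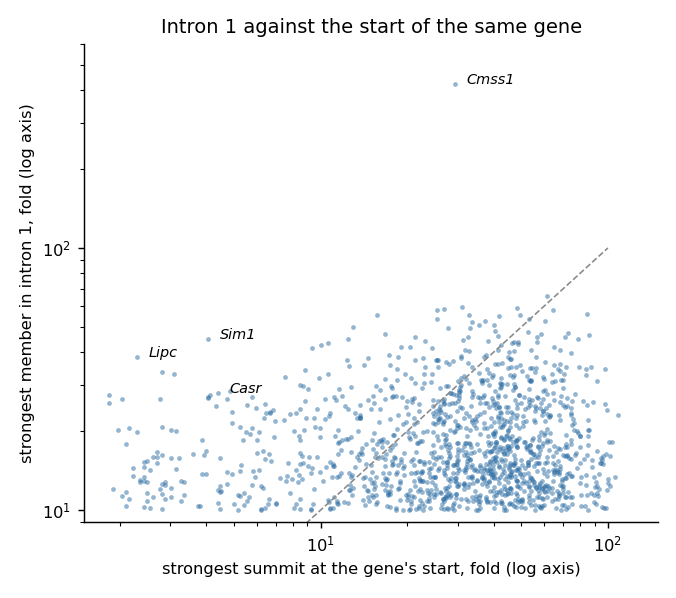
Fold enrichment of the strongest member in intron 1 (y axis, log scale) against that of the strongest summit within 1 kb of the canonical start (x axis, log scale), 1 point per host gene, with the line of equal values dashed. Of the 1354 points, 360 lie above the line, and Cmss1 stands alone at 422-fold. Start summits inside the member's own interval are included.

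The window of 100 bases to either side of each summit was next described for features that the rule did not use. Members had a median of 51.2% G or C, against 50.7% in later introns, 63.7% at promoters, 49.3% in first-intron intervals under 10-fold and 40.3% in flanking windows 1000 bases from the members' summits in the same introns, outside every interval. CpG-rich windows, with at least 50% G or C and a CpG frequency of at least 0.6 of that expected from their bases, made up 1.60% of members (Wilson 95% interval 1.17 to 2.20), 1.67% of later-intron intervals and 64.3% of promoter intervals. Of intergenic intervals 3 to 50 kb from a start, 5.17% had CpG-rich windows. As the rule keeps members over 3 kb from any start, the contrast with promoters is not independent of it. The strong first-intron windows were close to those of later introns in base composition and far from those of promoters. Irs1, with 73.6% G or C, and Cmss1 were at the upper end.

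Exact matches were searched on both strands for 18 motifs, where N stands for any base. At least 1 was found in 1195 members (51.8%). The AP-1 letters TGANTCA stood in 556 members (24.1%, Wilson 95% interval 22.4 to 25.9), in 22.4% of later-intron intervals, 7.0% of promoter intervals and 11.6% of first-intron intervals under 10-fold. They stood in 5.50% of the 1145 flanking windows, so that members held them 4.38 times as often. As flanks had to lie outside every interval, they came from beside 881 of the 2307 members alone. The difference from the flanks was 18.6 percentage points (Newcombe 95% interval 16.3 to 20.7), while that from later introns was 1.71 points, with an interval that spanned 0 (-0.34 to 3.81). That difference varied with strength and distance. AP-1 was the more frequent in members by 2.82 points (0.04 to 5.69) at 10- to 15-fold and by 5.14 points (0.71 to 9.78) at 15- to 20-fold, and at 20-fold or more the difference was -3.73 points (-7.76 to 0.50). By distance from the host start it was -1.81 points (-7.30 to 3.50) at 3 to 10 kb, 1.53 (-1.49 to 4.6) at 10 to 50 kb and 4.55 (0.47 to 8.97) beyond 50 kb.

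The kidney lineage motifs were rarer and stood well above the flanks. The HNF1 letters GTTAATNAT were found in 4.38% of members (3.62 to 5.29), against 0.524% of flanks, 0.927% of weaker first-intron intervals, 1.04% of promoters and 4.71% of later-intron intervals. The strongest members with HNF1 were those of Mfsd4b5 and Nedd4l. The HNF4 letters CAAAGTCCA were found in 52 members (2.25%) and in 0 of 1145 flanks, which allows a share of up to 0.262% by the limit of 3 counts and 0.334% by the Wilson interval. The strongest were those of Ppargc1b, a coactivator of mitochondrial genes, at 32.6-fold and of Abcc4, an apical exporter of organic anions in the proximal tubule, at 32.2-fold. The difference from later introns spanned 0 for both, at -0.33 percentage points for HNF1 (-1.31 to 0.73) and 0.19 for HNF4 (-0.49 to 0.96). Of the 6 ranges of fold and distance, the HNF1 interval excluded 0 at 15- to 20-fold alone, at -2.63 points (-4.53 to -0.37).

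Further motifs fell into those above and those near the flanks. The windows differed in base composition, with a median of 51.2% G or C in members and 40.3% in flanks. The part of base composition in the differences between members and flanks was not tested for any motif. The TFAP2 letters GCCNNNGGC stood in 10.2% of members against 1.66% of flanks, the SP/KLF letters GGGCGGG in 3.60% against 0.611%, and the TEAD letters ACATTCCA in 3.38% against 0.611%. TFAP2 was more frequent still at promoters, at 20.3%, as was SP/KLF, at 39.8%, whereas TEAD stood in 0.763% of promoters. TEAD was 0.96 percentage points more frequent in members than in later introns (0.16 to 1.86), 1 of 18 motifs compared in this way. Within ranges of fold and of distance the TEAD interval excluded 0 at 10 to 50 kb alone (1.33 points, 0.24 to 2.55) and spanned 0 in the other 5 ranges, as beyond 50 kb (0.41, -1.0 to 2.50). Its strongest members were those of Ctnnd1 and of Adap1 at 50.1-fold. The steroid receptor letters ACANNNTGT (6.89% against 6.29%) and the FOX letters TGTTTAC (3.12% against 2.79%) did not differ from the flanks beyond the interval of the difference. The GATA letters AGATAAG were less frequent in members (1.60%) than in flanks (3.23%), a difference of -1.63 points (-2.90 to -0.565).

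Apart from CTCF, the remaining 8 motifs stood in under 2% of members each. RUNX, TGTGGTTT, was found in 38 members, ERR, TCAAGGTCA, in 15, and CRE, TGACGTCA, in 14. PPAR-RXR, GGTCAAAGG, was found in 7, ETS, CCGGAAGT, in 6, NRF1, GCGCATGCG, in 4, and GRHL, AACCGGTT, in 3. NF1, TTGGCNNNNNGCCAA, was found in 1, that of Ptpn3 at 11.3-fold. The strongest members with ERR were those of P3h2, a prolyl hydroxylase of collagen, at 40.9-fold and Man2a1 at 31.1-fold, and with PPAR-RXR those of Mfhas1 at 26.4-fold and Tbl1xr1 at 24.6-fold. ETS stood in 6.08% of promoters and CRE in 2.63%. Of these 8 motifs, CRE alone exceeded the flanks beyond the interval of the difference, at 0.607 points (0.192 to 1.02). ERR stood in 0.650% of members and 0.524% of flanks, a difference of 0.126 points (-0.539 to 0.633). For PPAR-RXR the difference was 0.303 points (-0.066 to 0.625).

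**Figure D4:**
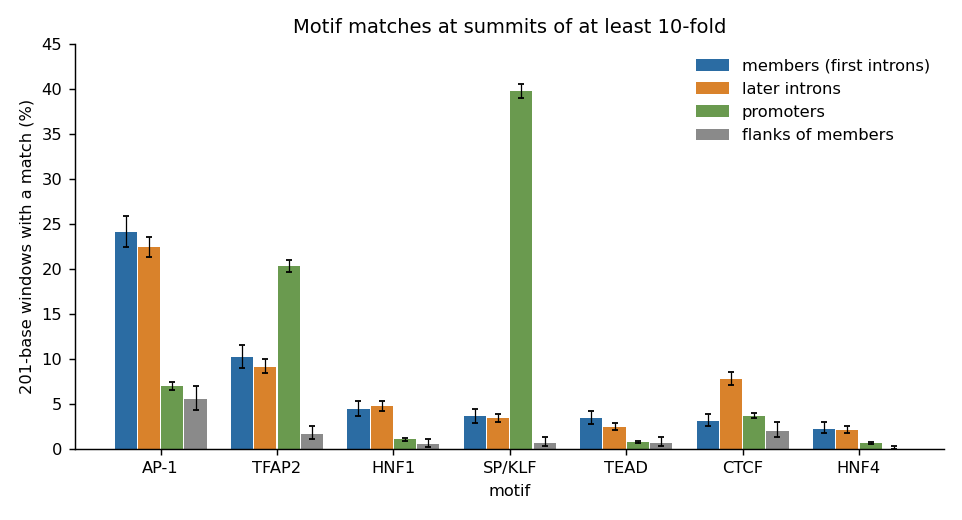
Percent of summit windows with a match (y axis) to 7 of the 18 motifs (x axis) in members, strong later-intron intervals, strong promoter intervals and flanks of members, with Wilson 95% intervals. Members and later introns differed most for CTCF, at 3.12% against 7.76%, and promoters stood apart with SP/KLF at 39.8%.

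The CTCF letters CCANNAGNNGGC showed the largest difference between members and other distal intervals among the 18 motifs. They stood in 72 members (3.12%, 2.49 to 3.91), in 7.76% of later-intron intervals and in 9.62% of intergenic ones 3 to 50 kb from a start. The difference from later introns was -4.64 percentage points (-5.62 to -3.59), and that from intergenic intervals -6.49 points (-7.64 to -5.31). Promoters held them at 3.66% and flanks at 2.01%. The difference from later introns was present at each distance from the host start, at -5.06 points (-8.64 to -1.89) at 3 to 10 kb, -5.02 (-6.58 to -3.43) at 10 to 50 kb and -5.05 (-6.48 to -3.03) beyond 50 kb. It was largest between 10- and 15-fold, where 4.12% of members and 10.6% of later-intron intervals held the letters, and at 20-fold or more it was -1.41 points with an interval that spanned 0 (-2.75 to 0.18). The strongest members with CTCF letters were those of Acot11, an acyl-CoA thioesterase, at 53.8-fold and Fnip2, a partner of folliculin, at 39.7-fold.

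Matches gathered at the summits for some motifs. A match within 50 bases of the summit was present in 74.6% of members with AP-1 (70.9 to 78.1), 76.9% of those with HNF4, 75% with CTCF and 68.3% with HNF1 (58.7 to 76.6). For the FOX letters, which were near the level of the flanks, this share was 40.3% (29.7 to 51.8), and for the steroid receptor letters 52.2% (44.5 to 59.8).

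**Figure D5:**
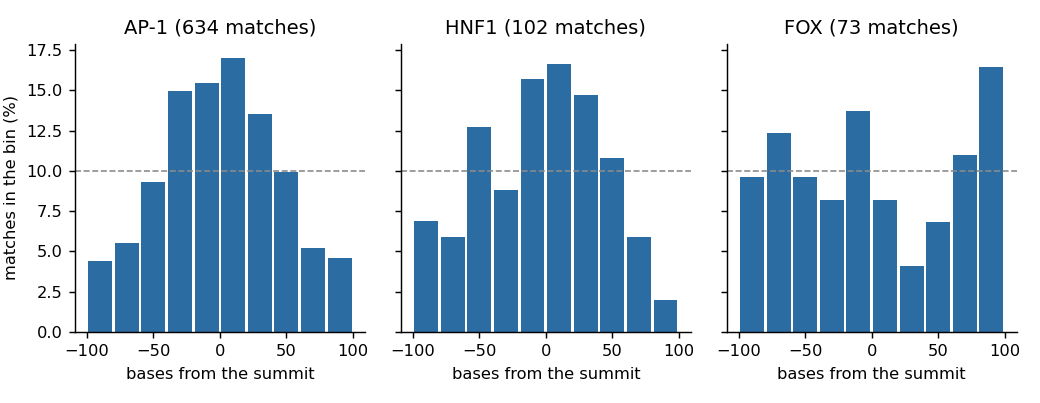
Share of all matches in members (y axis, percent) in bins of 20 bases by distance of the match's middle from the summit (x axis, bases), for AP-1, HNF1 and FOX, with the level of an even spread dashed. The 634 AP-1 matches and the 102 HNF1 matches peak within 20 bases of the summit, and the 73 FOX matches do not.

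Genes were then read by lists written for kidney cell types and for the pathways of the study, beside the 16.7% of all eligible genes that hosted a member and the 14.3 members per Mb over all of them. Lists with longer introns can hold more, so members per Mb are given too. Members per Mb also varied with eligible length, from 13.2 to 19.5 in the classes below 100 kb and 7.04 above it. The value over all eligible genes is therefore not matched to the lengths of any list. The lists of actin and adhesion, JAK-STAT and matrix genes follow what the study described in these samples and are not independent evidence.

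Proximal tubule genes held members in 5 of 14 eligible genes (35.7%, Wilson 95% interval 16.3 to 61.2, which includes 16.7%). They held 10 members or 61.8 per Mb (exact Poisson 95% interval 29.6 to 114). Slc4a4, the basolateral sodium bicarbonate cotransporter, held the strongest at 49.5-fold, above its promoter interval of 27.7-fold. Slc9a3, the apical sodium/proton exchanger, held one of 30.6-fold against 21.3-fold at its promoter, and Slc13a3, a dicarboxylate transporter, one of 24.4-fold against 8.45-fold. Lrp2, the endocytic receptor megalin, held one of 17.9-fold and Fbp1, an enzyme of gluconeogenesis, one of 16-fold. Each of these 5 genes held 2 members.

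Thick ascending limb and distal tubule genes held members in 3 of 13 eligible genes, with 10.5 per Mb. Stk39, the kinase that activates sodium chloride cotransporters, held one of 18.9-fold, Kcnj1, the potassium channel ROMK, one of 15.2-fold, and Trpm6, a magnesium channel, one of 10.02-fold. Podocyte genes held members in 6 of 9 eligible genes with 9.83 per Mb, led by Clic5 at 20.2-fold, Kirrel1, a slit diaphragm protein, at 18.2-fold, Podxl, the glycocalyx protein podocalyxin, at 17.0-fold and Cd2ap, an adaptor at the slit diaphragm, at 12.6-fold. Collecting duct genes held none in 10 eligible genes and immune genes none in 5, over 0.0724 Mb and 0.0194 Mb of eligible sequence, in which a count of 0 allows up to 51 and 190 members per Mb by the Poisson interval. Endothelial genes held members in 1 of 11, Ets1 at 13.8-fold, with 11.3 per Mb (1.37 to 40.7). Stromal genes held members in 1 of 4, Cspg4 at 23.2-fold, with 46.5 per Mb (5.63 to 168). Genes of other organs had the longest introns, 1.90 Mb in all, and held 2 members, in Rbfox3 at 26.9-fold and Dlg2 at 10.1-fold, or 1.05 per Mb (0.127 to 3.8). These are pooled kidney cortex nuclei, and the cell type in which an interval was open cannot be read from the list.

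Kidney transcription factor genes held members in 8 of 22 eligible genes (36.4%) with 19.4 per Mb (11.5 to 30.7). Sim1 held the strongest at 45-fold, ahead of Rxra, the shared partner of nuclear receptors, at 22.8-fold, Esrrb, an orphan nuclear receptor, at 20.4-fold and Tead1, a reader of Hippo signalling, at 18.4-fold. The summit window of the Rxra member held the CTCF letters.

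Actin cytoskeleton and adhesion genes held members in 16 of 27 eligible genes (59.3%, Wilson 95% interval 40.7 to 75.5), with 38 members or 34.0 per Mb (24.1 to 46.7). Beside Ctnnd1, the strongest were those of Tns3, a tensin that links integrins to actin, at 52.7-fold, Actn4, the actin cross-linker alpha-actinin-4, at 29.5-fold, and Itga6, the laminin-binding integrin subunit, at 25.7-fold. The Tns3 window held both HNF1 and AP-1 letters, and those of Actn4 and Itga6 AP-1 letters. Itga6, Actn1, Lpp and Pard3 held 4 members each, and Magi1 7. The median eligible length of the list was 28048 bp, against 6798 bp over all eligible genes.

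Matrix and fibrosis genes held members in 8 of 24 eligible genes (33.3%) with 35.1 per Mb (20.8 to 55.5). Col4a3 and Col4a4, which encode chains of the glomerular basement membrane and are transcribed away from a shared promoter, held members of 52.3-fold and 26.9-fold, and their shared promoter interval stood at 33.7-fold. Smad3, the transcription factor below the TGF-beta receptor, held 5 members, the strongest at 28.9-fold, and Tgfbr3, a TGF-beta co-receptor, 2 with the strongest at 22-fold. Col5a1, with 31964 eligible bases, and Col27a1, with 2580, held none.

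JAK-STAT and inflammation genes held members in 5 of 17 eligible genes with 27.6 per Mb (10.1 to 60.2). Nfkb1, a subunit of NF-kappaB, held one of 20.6-fold. Jak1, the kinase of cytokine receptors, held 2, of 19.2-fold with AP-1 letters at 62428 bp and of 13.9-fold at 48795 bp from its start, both under its promoter interval of 57.6-fold. Lifr, a receptor of the interleukin-6 family, held one of 13.7-fold and Stat5b one of 11.8-fold. Jak2, with 5020 eligible bases, held none.

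Acetyl-CoA and fatty acid genes held members in 5 of 16 eligible genes with 14 members or 55.5 per Mb (30.3 to 93.1), of which 9 were those of Ppargc1b. Kat2b, a histone acetyltransferase that uses acetyl-CoA, held one of 41-fold close to its promoter interval of 41.5-fold, and Hdac7, a histone deacetylase, one of 26.7-fold. Cpt1a, the entry enzyme of mitochondrial fatty acid oxidation, held one of 13.6-fold. Acly itself had no eligible bases in intron 1 and could hold no member, as was the case for Has3 and Fn1.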

How the data were processed

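The labels list ATAC-seq of 3 WT and 3 Acly cKO kidney libraries, and the pool behind the peak list may also hold earlier WT datasets of the study. According to the methods and labels, fastp trimming was followed by alignment to mm39 (Bowtie2 2.3.4.3), with duplicates and ambiguously placed reads discarded; the authors ran MACS3 3.0.0 on the pooled libraries at a q of 0.05 with summits called, then took out blacklisted regions (bedtools 2.29.1). The labels also list deepTools 3.5.1. The deposited peak list gives at each summit the fold enrichment over the local background, a linear ratio, the -log10 q and its distance from the interval start, with a -log10 p and a display score by the authors' caller that were not used here. The deposited summits before filtering hold the same -log10 q, and all 2307 members' summits stood in them. Nothing identifies a single library, so the depth behind each value is unknown, no genotype was compared and no p-value was computed.

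Rows were grouped into distinct intervals, each taking its highest summit by q, and placed on GENCODE M39 of GRCm39, the build of the files, with coordinates from 1. Eligible sequence lay in no exon and over 3 kb from a protein-coding or lncRNA start. Shares have Wilson, differences Newcombe and densities exact Poisson intervals at 95%. Flanks were 1145 windows beside 881 members. The scripts passed 27 of 27 checks on simulated data. The members, the 13 gene lists, the 18 motifs and the tests were chosen with earlier results of these data known. Named members are the 12 highest, the 3 on either side of the threshold, the strongest per list gene, those in 7 genes of the study, those of the 5 genes with the most members, and the strongest 2 per motif for 8 motifs. Python 3.11.15, numpy 2.4.6, pandas 2.3.3, scipy 1.17.1 and matplotlib 3.10.9 were used.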

Additional observations from a re-analysis of the deposited data

How the results depend on the processing

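No paired analysis was possible because all values come from 1 pooled call, and no library could be left out for the same reason. The threshold moved the count most: 5595 members at 5-fold, 1092 at 15-fold and 601 at 20-fold, with 30.6%, 9.52% and 5.72% of eligible genes as hosts. Over 10 kb from any start there were 1286 members. The host share was 12.7% over 1 kb, 18.9% over 5 kb and 20.7% over 10 kb from any start. The density ratio of first to later introns was 1.37 at 5-fold and 1.58 at 20-fold. Among settings added after seeing the data, it was 1.30 with later introns weighted by distance. Over 50 kb from the host start it was 1.02 (0.920 to 1.12). The higher density of first introns was thus seen within 50 kb, and intron length was not separated from distance. The share of hosts with a promoter interval was 88.0% at 15-fold, 85.7% at 20-fold, 86.5% over 1 kb and 92.3% over 10 kb from any start, 82.4% with a promoter window of 0.5 kb, 78.5% for promoter intervals of at least 10-fold and, as an added setting, 96.9% for any summit. The median GC was 52.5% in windows of 50 bases to either side, 48.9% with 200 bases to either side and 52.2% at 15-fold. The added CTCF difference from later introns was -2.48 points at 15-fold, -1.41 at 20-fold, where its interval spanned 0, and -2.73 with 1 more fixed letter in the motif. The cause was not tested. The other 25 values of these results stayed within the main interval, or within 1.5 times for counts. Of the single motif shares 31 of 90 moved, 26 of them with the window, and of the gene lists' shares 7 of 39.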
